A study of Mus musculus with 27 samples.

Results

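Of the 14 mice analysed here, 5 carried a label of 2 letters (AA, AB, AD, AE and AH) and 9 carried a label of 1 letter (J to R). The mice were split by that label alone, and no measured value was used for the split. The label series was, however, chosen for comparison with earlier results of these data known. The comparison asked how the cortex of the two-letter mice differed from that of the one-letter mice in all genes of the table, with treatment held. The labels and methods do not say what the letters stand for, so a difference of litter, surgery day, dissection or library preparation cannot be told apart from the label series.

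All mice were 16-week-old female 5xFAD/C57BL6 mice, which express mutated human transgenes under the neuronal Thy1 promoter and form amyloid plaques. They received 500 nL of vehicle, R33 or R55 into the lateral parietal associative cortex of 1 hemisphere, and tissue was taken 24 h later. R33 and R55 are thiophene thioureas that stabilize the retromer, a protein complex that sorts cargo out of endosomes, and both were injected at 10 mM. The vehicle held DMSO and beta-cyclodextrin without drug. The two-letter series held 1 vehicle mouse (AH), 2 R33 mice (AD, AE) and 2 R55 mice (AA, AB), and the one-letter series held 3 mice per treatment, J, L and M with vehicle, K, N and O with R33 and P, Q and R with R55. RNA came from a small cortical block around the injection site and from the matching contralateral block, as 9 libraries of two-letter and 18 of one-letter mice. Mouse AE was represented by its injected hemisphere only, so its value is not an average of both hemispheres. The counted fragments ran from 15932196 to 38077026 per library.

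The brain vasculature is lined by endothelial cells, which form the blood-brain barrier by sealing their contacts with tight junctions and by moving nutrients and drugs through dedicated transporters. Microglia are the resident macrophages of the brain. Around plaques and around a needle track they take up debris, and with other cells they switch on complement, interferon-response and antigen-presentation genes. In bulk tissue, fewer cells of a type and less RNA per cell cannot be told apart.

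Of 12976 tested genes (mean of at least 1 FPKM), 295 were higher in the two-letter mice (2.27%) and 446 were lower (3.44%) at an adjusted p under 0.05 in limma. FPKM are fragments scaled to the length of the gene and to the counted fragments of the library. A level given for a mouse is the mean of its hemispheres on the log2(FPKM + 1) scale, turned back into FPKM, and all fold changes are two-letter minus one-letter mice on the log2(FPKM + 1) scale with treatment held. The median over all tested genes was -0.011. With libraries centred on the mean of their hemisphere, which bears on AE, 673 genes were called. In 102 genes every two-letter mouse lay above the highest one-letter mouse (0.786%), and in 218 every two-letter mouse lay below the lowest one-letter mouse (1.68%). Higher genes had a median fold change of 0.41 and lower genes one of -0.33, and 15 and 7 of them passed a size of 1. In 21 of the higher genes, Tgm1, Ccl2, Lum, Slc22a6, Pf4 and Inmt among them, the one-letter mice lay under 1 FPKM on average. In 30 of the lower genes, Kdr, Robo4, Notch4, Cd93, Sox17, Gata2, Edn1 and Snora64 among them, the two-letter mice did. In these genes the filter was passed through the other series. On the first principal component, with 29.9% of the variance, the two-letter mice lay at 15.99 (AA), 13.79 (AB), 25.81 (AD), 4.81 (AE) and 4.17 (AH), and the one-letter mice from -12.97 to 4.05. The vehicle mouse AH and the R33 mouse AE were the two-letter mice nearest to the others. The count of calls rested on single mice: it was 224 without AA, 189 without AB, 228 without AE, 447 without AH, 261 without K, 175 without N and 224 without P, against 741 with all mice.

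Library measures moved with the series in part. Mean fragment totals were 26487034 ± 2762096 in two-letter mice (SD, n = 5) and 28307873 ± 5148512 in one-letter mice (SD, n = 9), with an exact permutation p of 0.484. The trend of a library on GC content, as the slope of the log2 deviation per 10 percentage points, was 0.0237, 0.0749, 0.094, 0.029 and 0.0728 in AA, AB, AD, AE and AH. In the one-letter mice it ran from -0.0964 over a median of -0.0292 to 0.0402 (two-sided exact permutation p = 0.0105, adjusted p = 0.0524 over 5 measures). With this trend removed, 565 of 12671 genes were called. The trend on gene length was -0.144 in AD and between -0.0552 and 0.0487 in every other mouse, and its difference gave an adjusted exact permutation p of 0.377. The part of these trends in single genes was not tested beyond those fits.

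The 9 endothelial marker genes were lower in the two-letter mice without exception. All 9 were called, against 3.44% of tested genes, and their median fold change was -0.82, against -0.011 over all tested genes. Flt1, the VEGF receptor 1 (chromosome 5 from 147498414 to 147662826 in GRCm39, minus strand), measured 2.06 FPKM in AA, 2.72 in AB, 2.05 in AD, 2.88 in AE and 4.5 in AH. The one-letter mice ran from 6.59 over a median of 9.20 to 11.5 FPKM. Even the highest two-letter mouse, the vehicle mouse AH, lay below the lowest one-letter mouse. The fold change was -1.38 (SE 0.123, adjusted p = 0.000167).

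Cldn5 encodes the main claudin of endothelial tight junctions (chromosome 16 from 18595597 to 18597012, plus strand). It measured 14.7, 18.2, 18.3, 11.5 and 16.2 FPKM in AA, AB, AD, AE and AH, and 25.2 to 42.8 FPKM with a median of 32.8 in the one-letter mice. The groups did not overlap, and the fold change was -1.03 (SE 0.125, adjusted p = 0.000693). Abcb1a, the P-glycoprotein drug efflux pump, measured 2.21, 2.63, 2.44, 3.06 and 4.40 FPKM in the same order of mice. In the one-letter mice it ran from 5.62 over 7.96 to 10.1 FPKM, for a fold change of -1.17 (SE 0.133, adjusted p = 0.000451). Slco1a4, an organic anion transporter of the barrier, measured 5.55, 6.05, 5.06, 5.77 and 7 FPKM against 11 to 17.4 with a median of 14.4. Its fold change was -1.13 (SE 0.105, adjusted p = 0.000192). The junction genes Cdh5 (-0.81, adjusted p = 0.000673), Pecam1 (-0.82, adjusted p = 0.00143) and Ocln (-0.59, adjusted p = 0.00191) completed the non-overlapping genes. Ly6c1 (-0.61, adjusted p = 0.00941) and Itm2a (-0.60, adjusted p = 0.00746) were called as well, but there a two-letter mouse reached into the range of the one-letter mice. Each of the 9 genes was called in all 14 fits that left out 1 mouse.

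**Figure D1:**
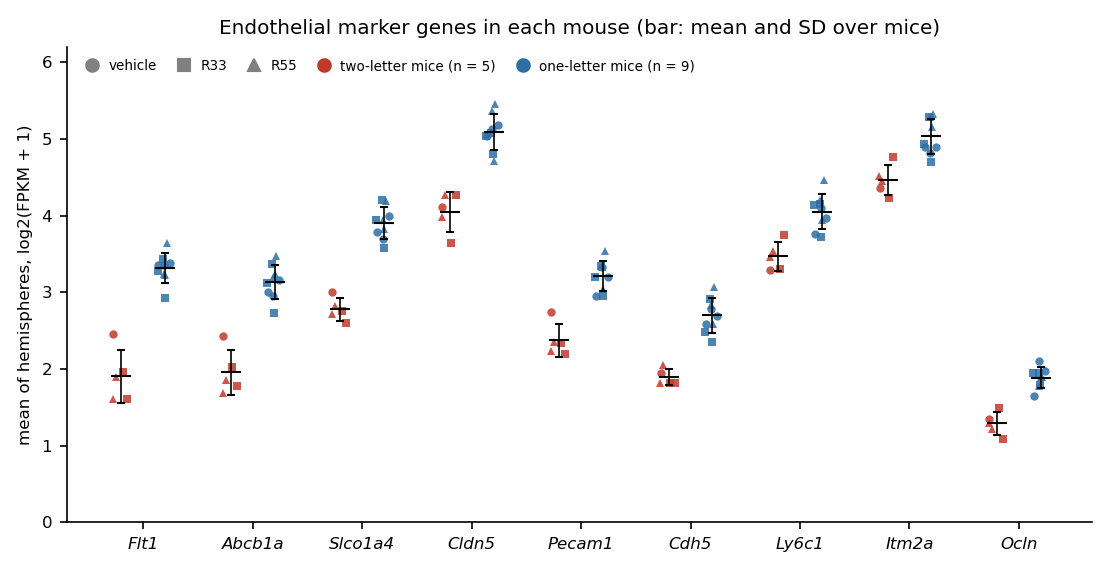
Levels of the 9 endothelial marker genes in each mouse, as the mean over hemispheres of log2(FPKM + 1). Red points are the 5 two-letter mice, blue points the 9 one-letter mice, marker shapes give the treatment, and bars give the mean and SD over mice. Red lies below blue for each gene, without overlap for 7 of the 9, and the red circle (AH, vehicle) is the highest two-letter mouse for Flt1, Abcb1a, Slco1a4 and Pecam1.

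Endothelial genes were grouped by role after their values had been seen, so the counts that follow are a description. The groups hold Flt1, Cldn5, Ocln, Slco1a4, Abcb1a, Pecam1 and Cdh5 of the marker list again, so their counts are not of further genes alone. Esam stands in both the tight junction and the adhesion group. Of 13 tested receptors for growth factors and Notch ligands, 10 were lower, against 3.44% of all tested genes, and none was higher, with a median of -0.74. Kdr, the VEGF receptor 2, measured 0.739, 0.805, 0.548, 0.897 and 0.830 FPKM in AA, AB, AD, AE and AH, and 1.66 to 2.87 FPKM in the one-letter mice. Its fold change of -0.87 (SE 0.0888, adjusted p = 0.000234) came without overlap. Kdr, Robo4 and Notch4 passed the filter on low values through the one-letter mice. Tek, the angiopoietin receptor Tie2, was at -0.83 (adjusted p = 0.000451), and the adhesion receptors Adgrf5 (-1.18, adjusted p = 0.000451) and Adgrl4 (-1.0, adjusted p = 0.000234) were among the largest differences of the table. Of 8 tested tight junction genes 5 were lower, and Tjp1, which is also expressed outside vessels, was not called at -0.20 (adjusted p = 0.112).

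Barrier transporters were affected unequally. Of 16 tested, 8 were lower, against 3.44% of all tested genes, and none was higher, with a median of -0.32. The thyroid hormone and anion carrier Slco1c1 measured 11, 11.7, 9.90, 12.2 and 13.5 FPKM in AA, AB, AD, AE and AH against 16.9 to 24.1 in the one-letter mice (-0.78, SE 0.0875, adjusted p = 0.000451). The glucose transporter Slc2a1, which astrocytes and neurons share in lower amounts, measured 26.5, 29.3, 25.1, 28.9 and 36.8 FPKM against 35.0 to 48.2 (-0.48, SE 0.103, adjusted p = 0.0253). AH lay inside the range of the one-letter mice for Slc2a1. The lipid carrier Mfsd2a, which restrains transcytosis, had a fold change of -0.35 that was not called (adjusted p = 0.0691), and the amino acid carrier Slc7a5 one of -0.087 (adjusted p = 0.581).

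Transcription factors of endothelial cells followed with smaller differences, and Sox17 and Gata2 among them passed the filter through the one-letter mice. Of 12 tested, 7 were lower, against 3.44% of all tested genes. They were Erg (-0.55, adjusted p = 0.00444), Sox17 (-0.51, adjusted p = 0.00747), Foxf2 (-0.46, adjusted p = 0.00975), Gata2 (-0.52, adjusted p = 0.0112), Lef1 (-0.76, adjusted p = 0.0117), Foxq1 (-0.54, adjusted p = 0.0133) and Sox18 (-0.55, adjusted p = 0.0246). Lef1, a nuclear effector of Wnt signalling, had also been listed as a thalamic marker, where it was the 1 called gene of 14. It measured 0.954, 0.921, 1.13, 1.10 and 0.944 FPKM in AA, AB, AD, AE and AH and 1.74 to 4.26 FPKM in the one-letter mice. The ETS factors Fli1 and Ets1, which blood-derived cells also express, had fold changes of 0.00013 and -0.23 and were not called (adjusted p = 0.999 and 0.119).

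Adhesion and glycocalyx genes gave 8 lower genes of 10, against 3.44% of all tested genes, with a median of -0.64. Among them were Podxl, a sialomucin of the luminal surface (-0.85, adjusted p = 0.00196), and Emcn, endomucin (-0.77, adjusted p = 0.00148). Of 9 vessel basement membrane genes 3 were lower, and these were the collagen IV chains Col4a1 (-0.64, adjusted p = 0.000391) and Col4a2 (-0.57, adjusted p = 0.000234) and fibronectin, Fn1 (-0.44, adjusted p = 0.0497). The chemokine Cxcl12 (-0.75, adjusted p = 0.000451) and endothelin 1, Edn1 (-0.64, adjusted p = 0.000857), both made by vessels, were lower without overlap, and Vegfa was lower by a smaller amount (-0.39, adjusted p = 0.0316). Edn1 and, in the adhesion group, Cd93 passed the filter through the one-letter mice. The phospholipid transfer protein gene Pltp, which endothelial cells express strongly, measured 10.2, 12.5, 12.2, 13.2 and 15.5 FPKM in AA, AB, AD, AE and AH against 22.7 to 33.9 (-1.05, SE 0.103, adjusted p = 0.000234). None of 6 genes of endothelial activation was called, with Icam1 at 0.10 and Vcam1 at 0.092 (adjusted p = 0.598 and 0.701).

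Other cells of the vessel wall differed far less. Of 9 mural cell markers 1 was lower, against 3.44% of all tested genes, and none was higher, with a median of -0.043. The lower gene was Rgs5, a pericyte gene that endothelial cells of some vessels also express (-0.60, SE 0.0837, adjusted p = 0.00179), with 14.6, 15.9, 13.7, 16.2 and 19.7 FPKM in AA, AB, AD, AE and AH and 20.1 to 28.5 FPKM in the one-letter mice. Pdgfrb, the receptor that defines pericytes, stayed at -0.0093 (SE 0.084, adjusted p = 0.960), and Vtn, which pericytes secrete, at 0.076 (SE 0.101, adjusted p = 0.670). The smooth muscle gene Acta2 had a fold change of -0.053 (adjusted p = 0.857).

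The endothelial difference was present in both hemispheres. In the injected hemisphere the median of the 9 markers was -0.68 and 7 were called, against 4.17% of tested genes that were lower there and 3.51% that were higher. In the contralateral hemisphere, which received no injection, the median was -1.05 and all 9 were called, against 0.57% of tested genes that were lower and 0.0694% that were higher. In that hemisphere all 4 two-letter mice lay below all 9 one-letter mice for each of the 9 genes, against 0.994% of all tested genes, and in the injected hemisphere this held for 4 of them, against 2.03%. The mean log2(FPKM + 1) over the 9 markers was 2.67, 2.50, 2.58 and 2.84 in the contralateral libraries of AA, AB, AD and AH, and 3.47 to 4.18 in those of the one-letter mice. In the injected libraries it was 2.52, 2.93, 2.73, 2.62 and 2.87 in AA, AB, AD, AE and AH and 2.94 to 3.71 in the one-letter mice. The lowest one-letter value there was that of K, at 2.94, whose contralateral library stood at 3.63.

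A part of the interferon response and antigen presentation genes was higher in the two-letter mice. Of 28 tested members 10 were called higher and none lower, against 2.27% of all tested genes, and all 28 had a fold change above 0, with a median of 0.67. Ifit3, an interferon-induced gene that limits viral translation, measured 23.4, 13.2, 14.1, 10.6 and 6.68 FPKM in AA, AB, AD, AE and AH. The one-letter mice ran from 3.79 over 5.13 to 9.93 FPKM. Of the two-letter mice 4 lay above every one-letter mouse, and AH lay among them. The fold change was 1.0 (SE 0.188, adjusted p = 0.0133), and reads could be split between Ifit3 and its near copy Ifit3b.

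Ifit1, Ifit3 and B2m are shown by the promoter sequence, because these are the called members whose promoter window holds the letters of the interferon-stimulated response element. The window runs from 250 bases before to 50 bases after the gene start and was taken from RefSeq promoters of GRCm38.p6, and its position was found by exact match in GRCm39. Capitals mark each match to TTTCNNTTTC on either strand, which 3.44% of all 32851 promoter windows hold. Of the 10 called members 8 had a promoter window and 3 held a match, and of 28 tested members 21 had one and 8 held a match.
Ifit1, chr19:34618039-34618338, plus strand: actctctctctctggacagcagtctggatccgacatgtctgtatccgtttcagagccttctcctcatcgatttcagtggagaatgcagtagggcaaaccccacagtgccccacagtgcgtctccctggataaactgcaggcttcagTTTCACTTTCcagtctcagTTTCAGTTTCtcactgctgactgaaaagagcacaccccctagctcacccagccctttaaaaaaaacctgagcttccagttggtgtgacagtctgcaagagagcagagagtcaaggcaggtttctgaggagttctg
Ifit3, chr19:34560679-34560978, plus strand: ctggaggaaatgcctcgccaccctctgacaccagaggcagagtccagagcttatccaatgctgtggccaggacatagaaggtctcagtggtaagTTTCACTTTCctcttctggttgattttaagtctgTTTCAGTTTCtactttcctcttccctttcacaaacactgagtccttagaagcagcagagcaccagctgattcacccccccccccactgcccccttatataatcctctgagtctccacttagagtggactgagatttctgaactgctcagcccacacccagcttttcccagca
B2m, chr2:121977918-121978217, plus strand: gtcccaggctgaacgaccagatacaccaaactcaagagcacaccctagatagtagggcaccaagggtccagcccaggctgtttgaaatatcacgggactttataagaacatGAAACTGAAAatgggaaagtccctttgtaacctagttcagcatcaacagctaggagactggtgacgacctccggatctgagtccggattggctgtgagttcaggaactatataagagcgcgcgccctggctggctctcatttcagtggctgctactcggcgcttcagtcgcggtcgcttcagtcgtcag
Ifit1 and Ifit3 each held 2 matches and B2m 1 match, the last read from the other strand. A match describes these letters only and does not show that a factor was bound.

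Ifit1, with the matches shown above, measured 8.31, 3.8, 4.46, 3.52 and 2.10 FPKM in AA, AB, AD, AE and AH and 1.35 to 3.39 FPKM in the one-letter mice (0.78, SE 0.183, adjusted p = 0.0313). B2m, the light chain of MHC class I, measured 498, 335, 391, 369 and 287 FPKM against 181 to 309 with a median of 250 (0.58, SE 0.153, adjusted p = 0.0448). Both show AA as the highest mouse and AH inside the one-letter range. Of the MHC class II genes, the invariant chain Cd74 measured 30.5, 13.9, 18.1, 15.7 and 11.4 FPKM against 4.38 to 14.6 with a median of 8.74 (1.06, SE 0.251, adjusted p = 0.0318). H2-Ab1, a class II beta chain, had a fold change of 0.90 (SE 0.214, adjusted p = 0.0318) and the viral sensor gene Oasl2 one of 0.86 (SE 0.219, adjusted p = 0.0388). The regulator Irf7 and the ubiquitin-like Isg15 were at 0.58 and 0.80 without a call (adjusted p = 0.144 and 0.121). The number of called members ran from 1 without AA, AE, K or N over 2 without P, 3 without AD, 4 without AB, 5 without M and 6 without Q to 16 without J and 20 without AH. Ifit3 was called in all 14 of these fits, Ifit1 in 8, Cd74, H2-Ab1 and Oasl2 in 7 and B2m in 4.

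Fewer than 1 in 2 of the microglial genes were called, and the calls were higher, both among genes of resting and among those of plaque-associated cells. Of 9 microglia markers 4 were higher and none lower, against 2.27% and 3.44% of all tested genes, with a median of 0.48. Tmem119, a marker of resident microglia, measured 29.3, 25, 28.1, 24.8 and 24.5 FPKM in AA, AB, AD, AE and AH and 13.4 to 26.1 FPKM with a median of 16.8 in the one-letter mice (0.59, SE 0.127, adjusted p = 0.0253). The two-letter mice lay near the upper end of the one-letter range. Aif1, which encodes IBA1 (0.65, adjusted p = 0.0371), Gpr34 (0.48, adjusted p = 0.0410) and the complement gene C1qa (0.66, adjusted p = 0.0431) were also called. P2ry12, the purinergic receptor of resting microglia, was at 0.27 without a call (adjusted p = 0.120). Of 16 homeostatic genes 7 were higher, with all 16 above 0, a median of 0.40 and the largest called difference in Fcrls (0.93, adjusted p = 0.0397), and Olfml3 was among them (0.71, adjusted p = 0.0379). Tmem119, Aif1 and Gpr34 stand in the marker list and again in the homeostatic list, so the counts are not of separate genes.

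Of 30 genes of plaque-associated microglia 9 were higher, against 2.27% of all tested genes, and none was lower, with a median of 0.51. Spp1, osteopontin, measured 48.8, 18.7, 27, 13.5 and 10.2 FPKM in AA, AB, AD, AE and AH and 3.19 to 11 FPKM with a median of 7.54 in the one-letter mice (1.36, SE 0.298, adjusted p = 0.0260). AH lay inside the one-letter range again. Lgals3, galectin 3 (1.0, adjusted p = 0.0442), Cd52 (0.80, adjusted p = 0.0407) and the lysosomal glycoprotein Cd68 (0.68, adjusted p = 0.0489) followed. The genes Cst7 and Trem2, which define the plaque-associated state, had fold changes of 0.92 and 0.59 that were not called (adjusted p = 0.0561 and 0.0653), and Apoe was at 0.17 (adjusted p = 0.412). Of 11 complement genes 4 were higher, with a median of 0.57: C1qb (0.71, adjusted p = 0.0429), C1qc (0.67, adjusted p = 0.0442), C1qa and the inhibitor Serping1 (0.85, adjusted p = 0.0485). These calls were near the threshold: among plaque-associated genes their number was 0 without AA, K, N or P, 1 without AB, AE or Q, 3 without L or M, 5 without AH, 15 without O and 18 without R. Among microglia markers it was 0 without AA, AE, K or N, 1 without AB, P or Q, 2 without L or M, 6 without O and 8 without R. No complement gene was called without AA, AB, AE, K, L, M, N or P, and 6 were called without J or R. The lists share called genes: C1qa is also a microglia marker, B2m is also in the interferon list and Spp1 is also in the tissue injury list.

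**Figure D2:**
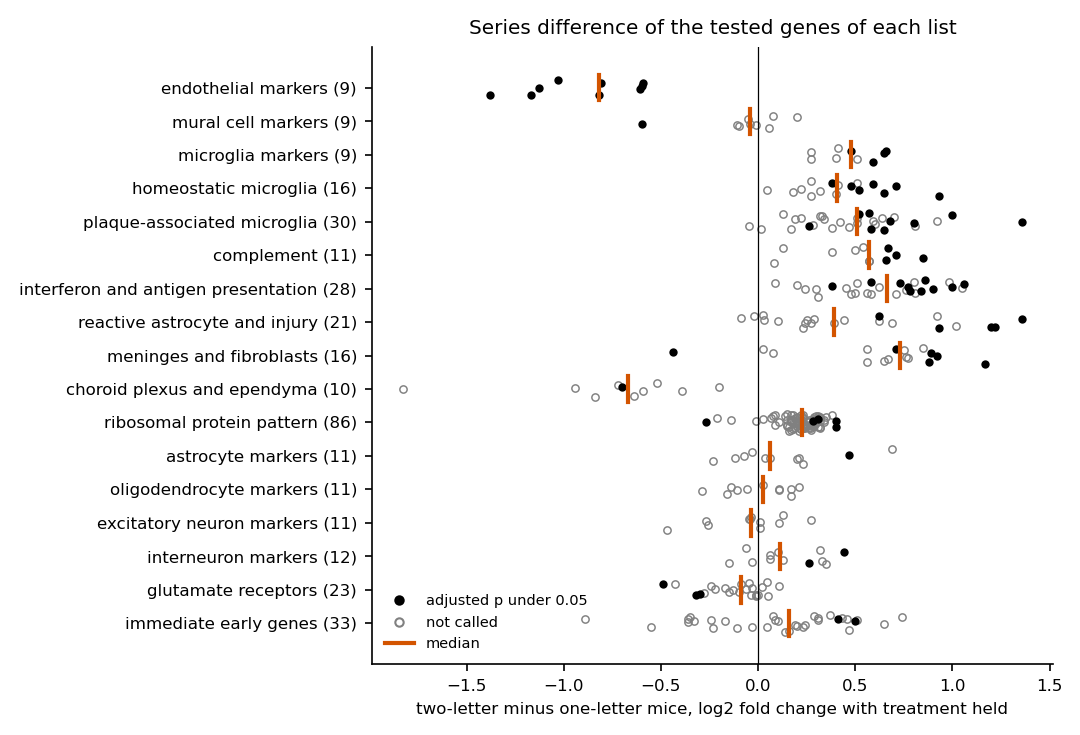
Series difference of each tested gene in 17 lists, as the log2 fold change of two-letter minus one-letter mice with treatment held, with the number of tested genes in brackets. Filled points passed an adjusted p under 0.05, open points did not, and the orange bar is the median of the list. The endothelial markers have the median furthest to the left, and the medians of the microglial, complement, interferon and meningeal lists lie to the right of 0. The lowest single gene, Ttr at -1.83, belongs to the choroid plexus list.

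A part of the tissue injury genes was higher, with a larger median difference on the injected side. Of 21 tested genes of reactive astrocytes and injury 5 were higher, against 2.27% of all tested genes, and none was lower. The list median was 0.39 (0.65 for injected and 0.13 for contralateral libraries). The 5 were Tgm1, Spp1, Timp1, Ccl2 and Cd14, and their number was 1 without AA, K, N or P, 2 without AE, 3 without AB, L, M or Q and 8 without J. Tgm1 and Ccl2 passed the filter on low values through the two-letter mice. Hmox1, which was not in this list, encodes haem oxygenase 1, which breaks down haem and is induced by oxidative stress (chromosome 8 from 75820241 to 75827217, plus strand). Its mouse means were 27.1, 15.6, 18.6, 19.5 and 6.97 FPKM in AA, AB, AD, AE and AH and 4.27 to 6.84 FPKM in the one-letter mice. The groups did not overlap, with AH just above the highest one-letter mouse, and the fold change was 1.43 (SE 0.206, adjusted p = 0.0024). In the injected hemisphere Hmox1 stood at 47.5, 34.4, 64.4, 19.5 and 10.4 FPKM against 4.07 to 9.15 in the one-letter mice. In the contralateral hemisphere it stood at 15.3, 6.82, 4.86 and 4.58 FPKM in AA, AB, AD and AH against 3.68 to 5.84. The fold changes were 2.11 and 0.45 (adjusted p = 0.457 in the contralateral hemisphere).

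The ferritin light chain Ftl1 and the ferrireductase Steap3 were higher too (0.46 and 0.50, adjusted p = 0.0371 and 0.00571), while the transferrin receptor Tfrc and the iron exporter Slc40a1 were lower (-0.37 and -0.34, adjusted p = 0.0229 and 0.0316). These iron genes were picked after their values had been seen, from a list of 15 tested genes of haem and iron handling. Of that list 4 were higher, Hmox1 and Alas2 among them, and 2 lower, against 2.27% and 3.44% of all tested genes. Its median was 0.031, with 9 genes above 0 and 6 below. Timp1, an inhibitor of metalloproteases (1.22, SE 0.269, adjusted p = 0.0268), the chemokine Ccl2 (0.93, SE 0.253, adjusted p = 0.0478) and its relative Ccl12 (1.38, SE 0.325, adjusted p = 0.0316) were among the called genes. Without AA, AE, K, N or P, Timp1 was no longer called, and Ccl2 was called only without AH or without J. Ccl12 measured 17.5, 9.11, 10, 12.6 and 4.96 FPKM in AA, AB, AD, AE and AH and 1.54 to 8.34 FPKM in the one-letter mice. Gfap, the intermediate filament of reactive astrocytes, had 445, 248, 332, 491 and 235 FPKM against 111 to 311, a fold change of 0.69 that was not called (adjusted p = 0.115).

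Whether the response to the injection itself differed between the series was tested as the injected minus contralateral change within the 13 mice with both hemispheres. Only 2 genes passed, 0.0154% of those tested, and 1112 had an unadjusted p under 0.05. Tgm1 encodes transglutaminase 1, which cross-links proteins. Its log2 change from the contralateral to the injected hemisphere was 3.53, 2.56, 2.90 and 0.99 in AA, AB, AD and AH, and in the one-letter mice it ran from -0.13 over 0.062 to 0.55. Each of these 4 two-letter mice showed an increase at the injected side larger than that of any one-letter mouse, and AE had no contralateral library to compare. The difference was 2.30 (SE 0.32, adjusted p = 0.0482). Tgm1 reached the minimum of 1 FPKM through the injected libraries of the two-letter mice, and with no filter on low values its adjusted p was 0.118. In injected libraries Tgm1 stood at 12.5, 5.41, 7.09, 2.87 and 1.15 FPKM in AA, AB, AD, AE and AH and at 0.0529 to 0.637 FPKM in the one-letter mice. In contralateral libraries it stood at 0.0833 to 0.169 FPKM in the two-letter mice and at 0.00874 to 0.223 FPKM in the others, so that its call as a mouse mean (1.20, SE 0.164, adjusted p = 0.00179) came from the injected side, and its contralateral fold change was -0.054 (adjusted p = 0.882).

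The other gene was Lgals9, galectin 9, an interferon-inducible lectin. It changed by 0.83, 0.37, 1.24 and 0.59 between the hemispheres of AA, AB, AD and AH and by -0.33 to 0.15 in the one-letter mice, with a difference of 0.91 (SE 0.116, adjusted p = 0.0359). Its injected level was 31.8, 14.2, 26.8, 15 and 14.6 FPKM in AA, AB, AD, AE and AH and 5.95 to 12 FPKM in the one-letter mice. Both calls were close to the threshold. With each mouse left out in turn, Tgm1 was called in 1 of 13 fits and Lgals9 in 3, and no gene was called without AA, AD, J, K, L, M, N, O, P or Q, against 33 genes without AH. The differences themselves stayed between 2.01 and 2.89 for Tgm1 and between 0.77 and 1.01 for Lgals9.

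**Figure D3:**
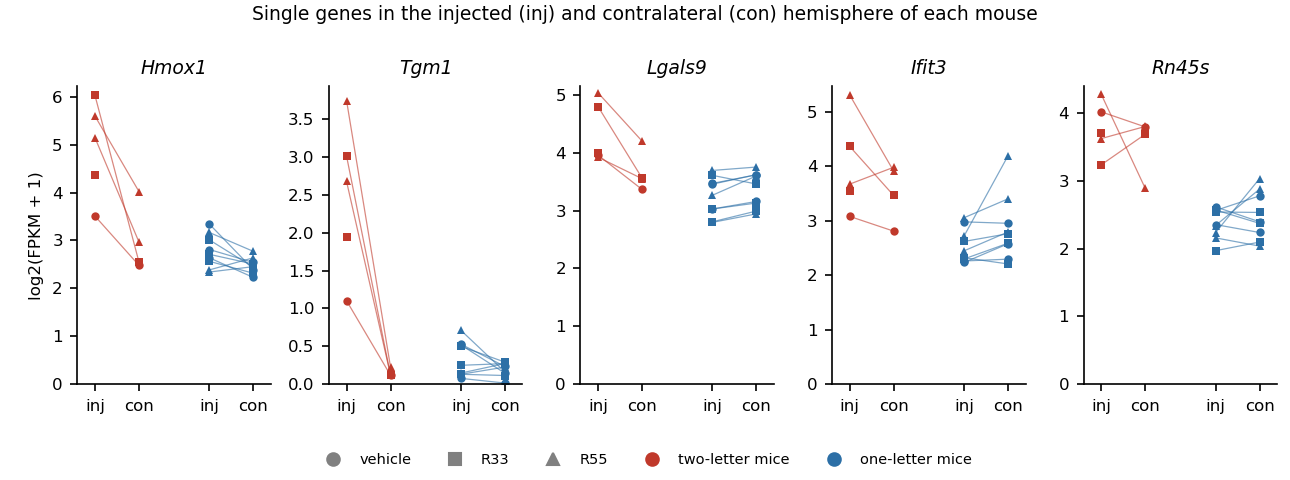
Log2(FPKM + 1) of Hmox1, Tgm1, Lgals9, Ifit3 and Rn45s in the injected (inj) and contralateral (con) hemisphere, with lines joining the hemispheres of a mouse and marker shapes giving the treatment. Two-letter mice are red (AE has an injected library only) and one-letter mice blue. Tgm1 in the injected hemisphere ran from 1.15 to 12.5 FPKM in two-letter mice and from 0.0529 to 0.637 FPKM in one-letter mice, while the contralateral levels were below 0.3 in both.

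The hemispheres also split the gene lists. Of the 295 higher genes, fits on 1 side alone called 228 in injected and 7 in contralateral libraries, and 242 had the larger difference in the injected hemisphere. Of the 446 lower genes these fits called 299 and 67. The interferon list had a median of 1.03 in injected and 0.27 in contralateral libraries, with 18 and 0 called members, and the plaque-associated list medians of 0.67 and 0.26. The mean log2 level of the interferon list in the injected libraries was 4.57, 3.21, 3.96, 3.17 and 3 in AA, AB, AD, AE and AH and 2.19 to 3.08 in the one-letter mice. In the contralateral libraries it was 3.70, 3.2, 2.98 and 2.65 in AA, AB, AD and AH and 2.39 to 3.35 in the others, where the series overlapped. No member of this list passed the test of the difference between hemispheres, so a difference of the interferon genes between the sides was not shown gene by gene. The 996 calls on injected libraries became 102 without AA, 235 without AB, 355 without AH, 266 without K, 531 without L, 643 without M, 289 without N, 195 without P, 268 without Q and 1661 without AD. The 83 calls on contralateral libraries became 39 without AA, 32 without AB, 21 without AD and 53 without O.

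**Figure D4:**
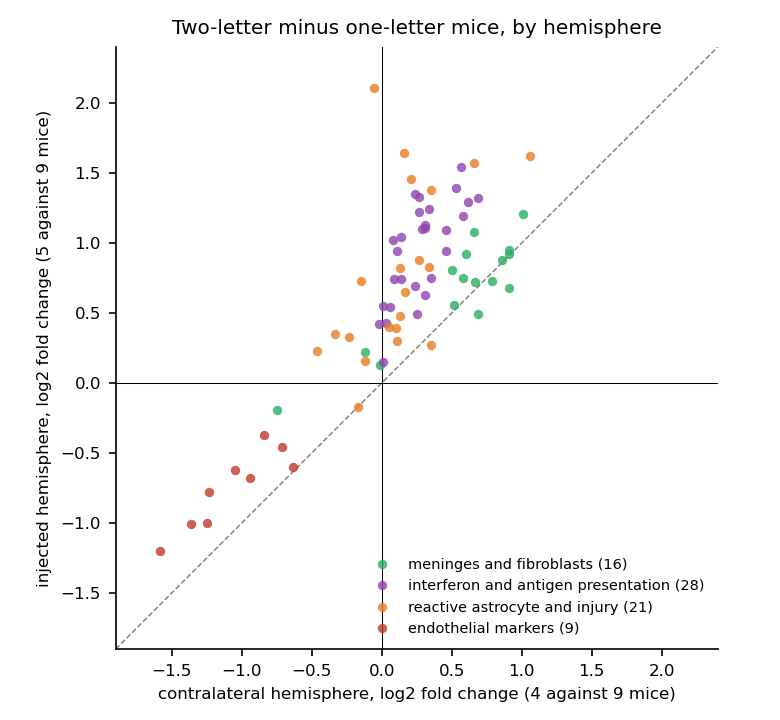
Series difference in the injected hemisphere (5 against 9 mice) against that in the contralateral hemisphere (4 against 9 mice) for the tested genes of 4 lists, both as log2 fold changes with treatment held; the dashed line marks equal values. Endothelial markers (red) lie below 0 on both axes, and most interferon (purple) and injury genes (orange) lie above the dashed line.

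**Figure D5:**
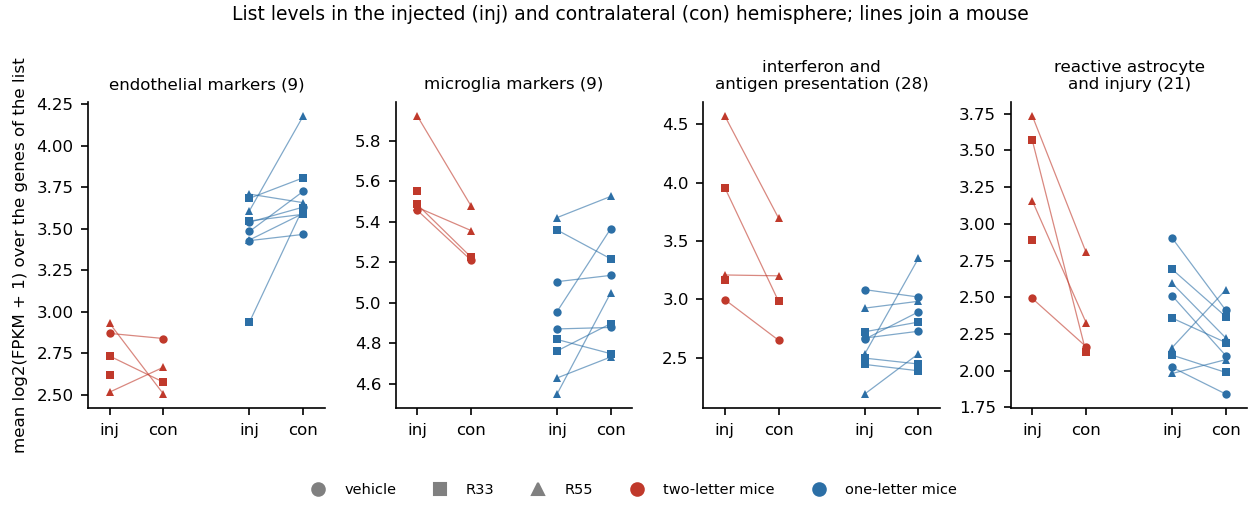
Mean log2(FPKM + 1) over the tested genes of 4 lists in each library, with the injected (inj) and contralateral (con) hemisphere of a mouse joined by a line. Endothelial levels of two-letter mice (red) lay between 2.50 and 2.93 and those of one-letter mice (blue) between 2.94 and 4.18, and the interferon list reached its highest level, 4.57, in the injected hemisphere of AA. The vertical axes differ between panels and do not start at 0.

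A part of the genes of the meninges and of fibroblasts was higher. Of 16 tested, 5 were higher and 1 (Fn1) lower, against 2.27% and 3.44% of all tested genes. Among the higher genes, Lum and Slc22a6 passed the filter on low values through the two-letter mice. The median was 0.73, with 0.74 in injected and 0.67 in contralateral libraries. The 1 call in contralateral libraries was Fn1, a lower gene. Lum, the collagen-binding lumican, measured 2.93, 2.58, 3.69, 2.14 and 1.38 FPKM in AA, AB, AD, AE and AH and 0.519 to 1.58 FPKM in the one-letter mice (0.88, SE 0.161, adjusted p = 0.0117). Aldh1a2, which makes retinoic acid in the meninges, measured 7.80, 8.21, 10.2, 6.95 and 3.1 FPKM against 1.16 to 5.48 (1.17, SE 0.289, adjusted p = 0.0363). The organic anion carrier Slc22a6 (0.89, adjusted p = 0.0313), osteoglycin, Ogn (0.92, adjusted p = 0.0485), Col1a2 (0.71, adjusted p = 0.0250) and fibromodulin, Fmod (1.03, adjusted p = 0.0479), were called as well. For each of these genes AH lay within the range of the one-letter mice. Of 14 genes of macrophages at the brain borders, picked after the values had been seen, 10 did not reach a mean of 1 FPKM and were not tested. Pf4, a chemokine, passed this filter through the two-letter mice, with 2.52, 3.28, 3.24, 1.47 and 1.39 FPKM against 0.348 to 1.45 (0.86, SE 0.151, adjusted p = 0.00854). The mean log2 level of the 16 meningeal genes was 3.59, 3.75, 3.98, 3.36 and 3.03 in AA, AB, AD, AE and AH and 2.46 to 3.63 in the one-letter mice, with J at 3.36 and Q at 3.63. The part of meningeal tissue in the endothelial and immune differences was not tested. The 6 calls of the list became 1 without AB, N or P, 2 without AD or AE, 3 without AA or K and 9 without J or Q.

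Choroid plexus and ependymal genes went the other way, with all 10 tested below 0 and a median of -0.67, but only Enpp2, which makes lysophosphatidic acid, was called (-0.70, SE 0.177, adjusted p = 0.0387). Of all tested genes, 3.44% were lower and 2.27% were higher. Ttr, the thyroid hormone carrier of the choroid plexus, measured 16.6, 9.90, 14.9, 9.28 and 11.7 FPKM in the two-letter mice and 4.03 to 860 FPKM with a median of 52.3 in the one-letter mice (-1.83, SE 0.93, adjusted p = 0.233). Striatal markers had a median of -0.35 without a call among 15, and the hippocampal and thalamic markers one of -0.15. Of the blood genes, 4 were tested and Alas2, the first enzyme of haem synthesis in red cells, was higher (0.64, SE 0.175, adjusted p = 0.0486), with 3.30, 4.81, 5.11, 3.64 and 1.74 FPKM against 1.30 to 3.87.

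The largest single difference among higher genes was Tshz2, a zinc finger transcription factor of neurons. It measured 34.2, 16.3, 12.1, 22.5 and 19.9 FPKM in AA, AB, AD, AE and AH and 4 to 14.6 FPKM with a median of 5.34 in the one-letter mice (1.5, SE 0.288, adjusted p = 0.0143). Of the 5 two-letter mice 4, AH included, lay above all others. The non-coding Rn45s, the precursor of ribosomal RNA, measured 12.2, 11, 10.1, 12.1 and 14.1 FPKM against 3.1 to 5.38 (1.27, SE 0.110, adjusted p = 0.000167). Here the groups were apart by a wide margin and AH was the highest mouse. The Y RNA genes Rny1 and Rny3 both gave a fold change of 1.39 (adjusted p = 0.0289 and 0.0334), and the small nucleolar RNA genes Snora64 and Snord47 were lower at -0.92 and -0.81 (adjusted p = 0.0150 and 0.0122). The libraries were made from poly(A) RNA, which these RNAs lack for the most part, and Rn45s stands for a gene with many copies, so its level is uncertain. Cartpt, a neuropeptide precursor, was lower at -0.82 (adjusted p = 0.0307), and the interferon-induced Ifitm1 was higher at 1.05 (adjusted p = 0.0268).

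In the contralateral libraries taken by themselves 9 genes were higher, and they held no endothelial marker. The scavenger receptor Colec12, at 0.75 (adjusted p = 0.00434), Inmt, a methyltransferase (0.71, adjusted p = 0.0126), the amino acid carrier Slc6a20a (0.73, adjusted p = 0.0349), Amn (0.68, adjusted p = 0.0268), Cox6a2 (0.52, adjusted p = 0.0364), Zfp385a (0.50, adjusted p = 0.0417), Cygb (0.39, adjusted p = 0.0476), Asb16 (0.35, adjusted p = 0.0462) and Rn45s (1.06, adjusted p = 0.0462) made up this group. Inmt passed the filter on low values through the two-letter mice. As a mouse mean it measured 2.29, 2.68, 3.70, 1.77 and 1.77 FPKM in AA, AB, AD, AE and AH and 0.492 to 1.55 FPKM in the one-letter mice. These genes were listed because they are few.

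Neuronal and glial markers gave few calls, where 2.27% of all tested genes were higher and 3.44% lower. None of 11 excitatory neuron, 11 oligodendrocyte and 7 oligodendrocyte precursor markers was called, with medians of -0.037, 0.025 and 0.014. The vesicular glutamate transporter Slc17a7, which defines cortical excitatory neurons, measured 495, 571, 560, 567 and 558 FPKM in AA, AB, AD, AE and AH and 405 to 632 FPKM in the one-letter mice (0.11, SE 0.085, adjusted p = 0.454). It was thus a highly expressed gene in every mouse. Camk2a was at -0.037, Mbp at 0.21, Olig1 at 0.15 and Olig2 at 0.014 (adjusted p = 0.871, 0.424, 0.384 and 0.957). Of 11 astrocyte markers Aldh1l1 was higher (0.47, SE 0.0996, adjusted p = 0.0238), while Aldoc and Slc1a2 were at 0.21 and -0.23 without a call (adjusted p = 0.327 and 0.604). Of 12 interneuron markers 2 were higher: parvalbumin, Pvalb, with 82.9, 84.5, 113, 76.4 and 71.1 FPKM against 43.0 to 77.3 (0.44, SE 0.1, adjusted p = 0.0296), and the transcription factor Lhx6 (0.26, adjusted p = 0.0391).

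Of 23 glutamate receptor genes 3 were lower, against 3.44% of all tested genes, and none was higher, with a median of -0.087. The AMPA receptor subunit Gria2 measured 38, 33, 27.3, 41.6 and 35.3 FPKM in AA, AB, AD, AE and AH and 40.6 to 61.8 FPKM in the one-letter mice (-0.49, SE 0.104, adjusted p = 0.0245). Gria3 (-0.30, adjusted p = 0.0296) and the metabotropic Grm7 (-0.32, adjusted p = 0.0358) were the others. None of 20 calcium channel and release genes was called, although 19 lay below 0 (median -0.12, with Atp2a2 at -0.21 and Jph4 at -0.042, adjusted p = 0.205 and 0.760). Of 24 retromer and Vps13 genes, the direct context of the drugs, 1 was lower, against 3.44% of all tested genes. This gene was Vps29 (-0.23, SE 0.0622, adjusted p = 0.0475), and no member was called without AE or without AH. The list median was -0.032, with Rab7 at 0.055 and Snx3 at 0.079 (adjusted p = 0.476 and 0.496). Of the transgene-related genes, App and Thy1 were not called, with App at -0.24 and Thy1 at 0.23 (adjusted p = 0.122 and 0.205).

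Lists of general cell state gave few calls, set against 2.27% of all tested genes that were higher and 3.44% that were lower. Of 33 immediate early genes Dusp5 (0.50, adjusted p = 0.0246) and Trib1 (0.41, adjusted p = 0.0253) were higher, with a median of 0.16. Of 21 clock genes Arntl, the partner of CLOCK, was lower (-0.40, SE 0.0957, adjusted p = 0.0332) and Tef was higher (0.24, SE 0.0589, adjusted p = 0.0345). Of 18 glucocorticoid-responsive genes Cdkn1a was higher (0.44, adjusted p = 0.0487), with Mt1 at 0.22 and Mt2 at 0.35 (adjusted p = 0.303 and 0.148). Of 20 heat shock and cold-inducible genes the splicing factor Srsf5 was lower (-0.46, SE 0.0835, adjusted p = 0.0112), while Hspa8 and Hsp90ab1 were at -0.012 and 0.023 (adjusted p = 0.927 and 0.860). None of 19 genes of the unfolded protein response was called (median -0.024, with Calr at -0.021 and Hsp90b1 at -0.12, adjusted p = 0.897 and 0.399). Of 11 genes known to vary between mouse strains Gabra2, a GABA receptor subunit with a known C57BL/6J variant, was lower (-0.43, SE 0.112, adjusted p = 0.0416), with 9.55, 8.75, 7.14, 10.3 and 8.23 FPKM against 10.3 to 16.3. Cyfip2 and Glo1 were at 0.033 and 0.12 without a call (adjusted p = 0.832 and 0.227).

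Of 86 genes with a ribosomal protein name 4 were higher and 1 was lower, against 2.27% and 3.44% of all tested genes. In this list 82 lay above 0, with a median of 0.22. The name pattern also took kinases of the Rps6k family, and the lower gene Rps6ka3 and the higher gene Rps6ka4 (0.28, adjusted p = 0.0216) are such kinases. Among the ribosomal genes called were Rplp0 (0.40, adjusted p = 0.0387) and Rps4x (0.31, adjusted p = 0.0423). None of 82 nuclear genes of oxidative phosphorylation was called (median 0.11, with Atp5b at 0.19 and Cox6a1 at 0.19, adjusted p = 0.0888 and 0.191). The ribosomal median was 0.44 among R33 mice, 0.16 among R55 mice and 0.0031 for the vehicle mouse AH against the 3 other vehicle mice.

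The series difference was then set side by side within each treatment, as values without a test for vehicle, where 1 mouse stood against 3. The endothelial markers had medians of -0.65 with vehicle, -0.89 with R33 and -1.01 with R55, and all 9 were below 0 in each treatment. The interferon list had medians of -0.022, 0.76 and 0.98, with 12 of 28 genes above 0 for vehicle and 28 of 28 for either drug. The injury list had medians of -0.084, 0.47 and 0.53, and the meningeal list 0.21, 0.96 and 0.75. In the test of the series difference between treatments no gene was called by limma, and 145 had an unadjusted p under 0.05, so a dependence on treatment was not shown for any gene. Of the 295 higher genes 291 had the same sign for vehicle, and of the 446 lower genes 444 did, where AH and the 3 vehicle mice were also among the mice that chose these genes.

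With the series as a covariate, R33 and R55 against vehicle gave no called gene in limma, with 382 and 461 genes at an unadjusted p under 0.05. Without the covariate the counts were again 0, with 346 and 440 genes. The label series, which the treatments share unequally with 1 of 4 vehicle and 2 of 5 mice of either drug,, gave 741 called genes in the fit on the same 14 mice.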

How the data were processed

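Cortical RNA of 14 mice was measured as poly(A) RNA sequencing, with 1 library per mouse and hemisphere. The deposited table held 32 libraries, of which 27 match the sample labels. The other 5 were not used here. Alignment by the authors was done with HISAT2 against the GRCm39 assembly, and the values are deposited as FPKM for 26264 gene symbols. The counting tool and annotation are not given in the sources used here. Library totals ran from 15932196 to 38077026 fragments with a median of 27441308. These totals could be read back from the FPKM, since 100% of the values over 0 came out as whole fragments (tolerance 0.01). Both the depth and the number of mice limit the precision.

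Values were averaged over the hemispheres of a mouse as log2(FPKM + 1). Genes averaging 1 FPKM or more entered limma (version 3.58.1 in R 4.3.3) with an intensity trend, label series and treatment as terms and Benjamini-Hochberg adjustment, and calls had an adjusted p under 0.05. The same fit was made per hemisphere and on the injected minus contralateral change. Library measures were compared by exact permutation over all 2002 splits of 14 mice into 5 and 9. The mice are separate animals by their labels. Mitochondrially encoded genes are not analysed here. Gene positions and GC content came from GENCODE for 12671 tested genes.

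In simulated data on 12976 genes, with 200 changed by 0.25, 0.5 or 1 on the log2 scale, the series fit recovered 10.5%, 73.5% and 96.5% of them, with 2, 5 and 10 false calls. The simulated spread between mice was drawn for each gene on its own, with the same level in both hemispheres of a mouse. Variation shared by many genes was left out, so these counts do not give the error rate of the real calls. The text names up to 15 called genes per direction with the largest fold change, up to 4 called genes per list, and the 2 most abundant genes of lists with fewer than 2 calls. Other genes were named after their values were seen. The 31 lists and the label series itself were chosen with earlier results of these data known, and 13 more lists were added after the values were seen. Alternatives changed the pseudocount, the filter, the scaling, the covariate, the hemisphere, the mice, the model of hemispheres and the GC or length trend. Some results are not reported here.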

Additional observations from a re-analysis of the deposited data

Results flagged for a closer look

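Over 278 groups of mice, a mouse far from the rest of its series was found in 8. This is a smaller share than the about 5% of groups that chance gives, so the values below are a description only. Among one-letter mice, R had 4.6% of its fragments on the 10 most abundant genes, with the next mouse at 4.04%. R also had the lowest mean log2 level of the glutamate receptor genes, 3.63 against 3.79. Q had the highest level of the red cell gene Alas2, 3.87 FPKM against 1.98, and of the anion carrier Slc22a6, 2.91 FPKM against 1.29. J had the highest level of the chemokine Ccl2, 1.51 FPKM against 0.487.

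Among two-letter mice, AD had the lowest level of Enpp2, 54.6 FPKM against 72.6, and AA the lowest of the excitatory neuron gene Slc17a7, 495 FPKM against 558. The vehicle mouse AH had the highest level of the endothelial gene Pecam1, 5.7 FPKM against 4.09.

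The change from the contralateral to the injected hemisphere differed between the series for 2 genes by limma, Lgals9 with a difference of 0.91 and Tgm1 with a difference of 2.30 on the log2 scale. Both were larger in the two-letter mice. Tgm1 reached the minimum of 1 FPKM through the injected libraries of the two-letter mice. With no filter on low values neither gene was called by limma (adjusted p = 0.118 for Tgm1 and 0.0882 for Lgals9). With a mouse left out, Tgm1 was called in 1 of 13 fits and Lgals9 in 3.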

How the results depend on the processing

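The count of 741 called genes moved to 1345 with all 27 libraries and a modelled correlation within mice of 0.272, 1333 without the treatment covariate, 1407 with the length trend removed, 348 without vehicle mice, 83 on contralateral libraries, 1 on R33 mice and 11 on R55 mice alone. Without the 2 libraries of highest summed FPKM (AD injected and Q contralateral), an alternative chosen after seeing the data, it was 1348. Leaving out each mouse gave 175 to 1076. On injected libraries it was 996, with 102 to 1661 when a mouse was left out, and on contralateral libraries 21 to 103. In the injected libraries median-of-ratios scaling made 55.6% of the calls higher, against 45.7%. The change between hemispheres gave 0 calls by limma with no filter and 1 with a pseudocount of 0.1, and 0 to 33 when a mouse was left out. The difference of the series between treatments gave 15 calls with no filter and 0 to 1 when a mouse was left out, and without AH it could not be fitted. The GC trend difference was 0.0949 in injected libraries (adjusted exact permutation p = 0.02) and 0.0812 to 0.0989 when a mouse was left out. Tgm1 turned to -0.054 on contralateral libraries. Of 69 called named genes, 358 calls were lost and 608 kept over the 14 fits that left out a mouse, and 54 were lost on contralateral libraries. All 9 endothelial markers were called in each of these 14 fits and 7 to 9 in the other alternatives except within 1 drug, where 0 were called on R33 and 4 on R55 mice alone. The cause of these shifts was not tested. The 2 label series hold different mice, so no mouse of one series could be paired with a mouse of the other. The hemispheres of a mouse were paired in the test of the injected minus contralateral change. The small number of mice, and 1 vehicle mouse in the two-letter series, limit the precision.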
